A study of Mus musculus with 6 samples.

Results

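Tetrahydrobiopterin is the pterin cofactor of the aromatic amino acid hydroxylases, the nitric oxide synthases and alkylglycerol monooxygenase. It is built from GTP in a short series of steps, it is oxidised when the hydroxylases use it, and it is then recycled by a dehydratase and a reductase. The first and rate-limiting enzyme is GTP cyclohydrolase I, encoded by Gch1. A regulator of its activity is the protein of Gchfr, the GTP cyclohydrolase I feedback regulatory protein. This protein binds the enzyme and inhibits it when tetrahydrobiopterin accumulates. In melanin-forming cells, such as the intermediate cells of the stria vascularis, tetrahydrobiopterin has also been linked to the supply of tyrosine and to tyrosinase.

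The genes described here are the 7 of synthesis, recycling and feedback, namely Gchfr, Gch1, Pts, Spr, Qdpr, Pcbd1 and Pcbd2, out of 18193 named genes on the array. They were found as every probe set (several short oligonucleotides for 1 transcript, read as 1 value) whose only annotated gene symbol was one of these names, which gave 10 of 45037 probe sets without controls. Gchfr was chosen by its signal, which was lower in all knockout arrays, so its difference between the genotypes is given as values without a test. The other 6 genes were included for their place in the pathway, and they were tested. RNA came from the stria vascularis, the potassium-secreting epithelium at the outer side of the cochlear duct, of mice at postnatal day 10. The control mice were heterozygous for Slc26a4, which encodes the anion exchanger pendrin, and the others were Slc26a4 knockout mice. Heterozygous replicates 1, 3 and 5 and knockout replicates 2, 4 and 6 made 3 arrays per genotype. All controls carried 1 mutant copy, and no wild-type mice were analysed here. The labels give neither the strain nor whether an array held 1 animal or a pool, so p-values measure only the spread between these samples, which may be partly technical.

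The targeted gene gave signals of 221, 248 and 1006 in the heterozygous arrays and of 75.5, 106 and 154 in the knockout arrays, so the groups did not overlap. Slc26a4 lies on chromosome 12, whereas the 7 pathway genes lie on chromosomes 2, 14, 9, 6, 5, 10 and 13 in the order named above. The defining markers of the stria were bright in all arrays: Tyr, the tyrosinase of intermediate cells, was between 4368 and 5736, the potassium channel gene Kcnj10 of the same cells was between 2586 and 4084, the marginal cell channel gene Kcnq1 was between 5326 and 6341, and the basal cell gene Cldn11 was between 7412 and 8690. The range of Tyr is that of its brightest probe set, and its other probe sets were dimmer, at 787 to 1474 and 3051 to 4106. Knockout replicate 4 stood apart, with a median correlation of 0.932 with the other arrays, where the other arrays had 0.971 to 0.98, and values without it are given beside the results below. Because tissue RNA was measured in bulk, fewer cells of a type and less RNA per cell cannot be told apart.

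The stretches of 250 bases before the transcription starts of Gchfr and Gch1 are shown because these genes encode the inhibitor and the enzyme it binds. Both are from RefSeq, build GRCm38.p6, and are written 5′ to 3′ on the strand of the gene. That of Gchfr is chr2:119167538-119167787 on the plus strand and that of Gch1 is chr14:47189414-47189663 on the minus strand. Capitals mark the CCAAT box, the core TGACG of the cyclic AMP response element and the GC box GGGCGG, each searched on both strands, so that the reverse complement of a motif is marked as well.
Gchfr: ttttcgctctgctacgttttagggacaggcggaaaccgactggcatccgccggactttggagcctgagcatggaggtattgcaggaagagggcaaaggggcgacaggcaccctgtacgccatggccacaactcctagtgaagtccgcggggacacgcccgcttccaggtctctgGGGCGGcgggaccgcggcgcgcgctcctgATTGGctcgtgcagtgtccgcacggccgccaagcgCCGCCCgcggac
Gch1: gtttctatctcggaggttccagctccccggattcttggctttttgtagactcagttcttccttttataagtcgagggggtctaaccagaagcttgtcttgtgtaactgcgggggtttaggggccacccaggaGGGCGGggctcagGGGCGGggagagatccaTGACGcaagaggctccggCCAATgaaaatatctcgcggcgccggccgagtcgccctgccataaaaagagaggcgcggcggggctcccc
The Gchfr window held an inverted CCAAT box at 47 to 43 bases before the start and GC boxes at 76 to 71 and 12 to 7 bases. The Gch1 window held GC boxes at 118 to 113 and 105 to 100 bases, TGACG at 88 to 84 bases and a CCAAT box at 70 to 66 bases. In rat, a cyclic AMP response element beside a CCAAT box is known in the proximal promoter of this gene. No marked motif overlapped another in these windows. All 7 genes had an upstream window in the table, of which 3 held CCAAT, 2 held TGACG (Gch1 and Pcbd2) and 5 held GGGCGG, on either strand. Among all 32851 upstream windows of this length, 33.8% held CCAAT, 17.8% held TGACG and 32.7% held GGGCGG. These matches describe the letters in the windows and no binding was measured.

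Gchfr, the feedback regulator, was lower in each knockout array. On its single probe set (1435750_at) the signal was 776, 729 and 649 in heterozygous replicates 1, 3 and 5, and 398, 373 and 371 in knockout replicates 2, 4 and 6. The groups did not overlap, and the knockout arrays lay close together. The mean was 718 ± 64.2 (SD, n = 3) over the heterozygous arrays and 381 ± 14.8 (SD, n = 3) over the knockout arrays, so that the knockout mean was 53.0% of the heterozygous mean. On the scale of log2(signal + 16), which understates changes of dim genes, the difference was -0.88 (knockout minus heterozygous). These values are those that chose the gene. Of the 27022 probe sets tested, 5.99% likewise had all knockout arrays below all heterozygous ones. The coefficient of variation of Gchfr was 3.90% among knockout arrays and 8.94% among heterozygous arrays, where the medians over all tested probe sets were 19.6% and 12.7%. A gene chosen for lying apart between the groups tends to vary little within them, and these medians cover probe sets of all levels. The small spread is therefore only a description. The difference was -0.87 without knockout replicate 4, and leaving out any other array gave between -0.95 and -0.83. Because the gene was chosen for lower signal in all knockout arrays, leaving out 1 array could change this little.

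**Figure D1:**
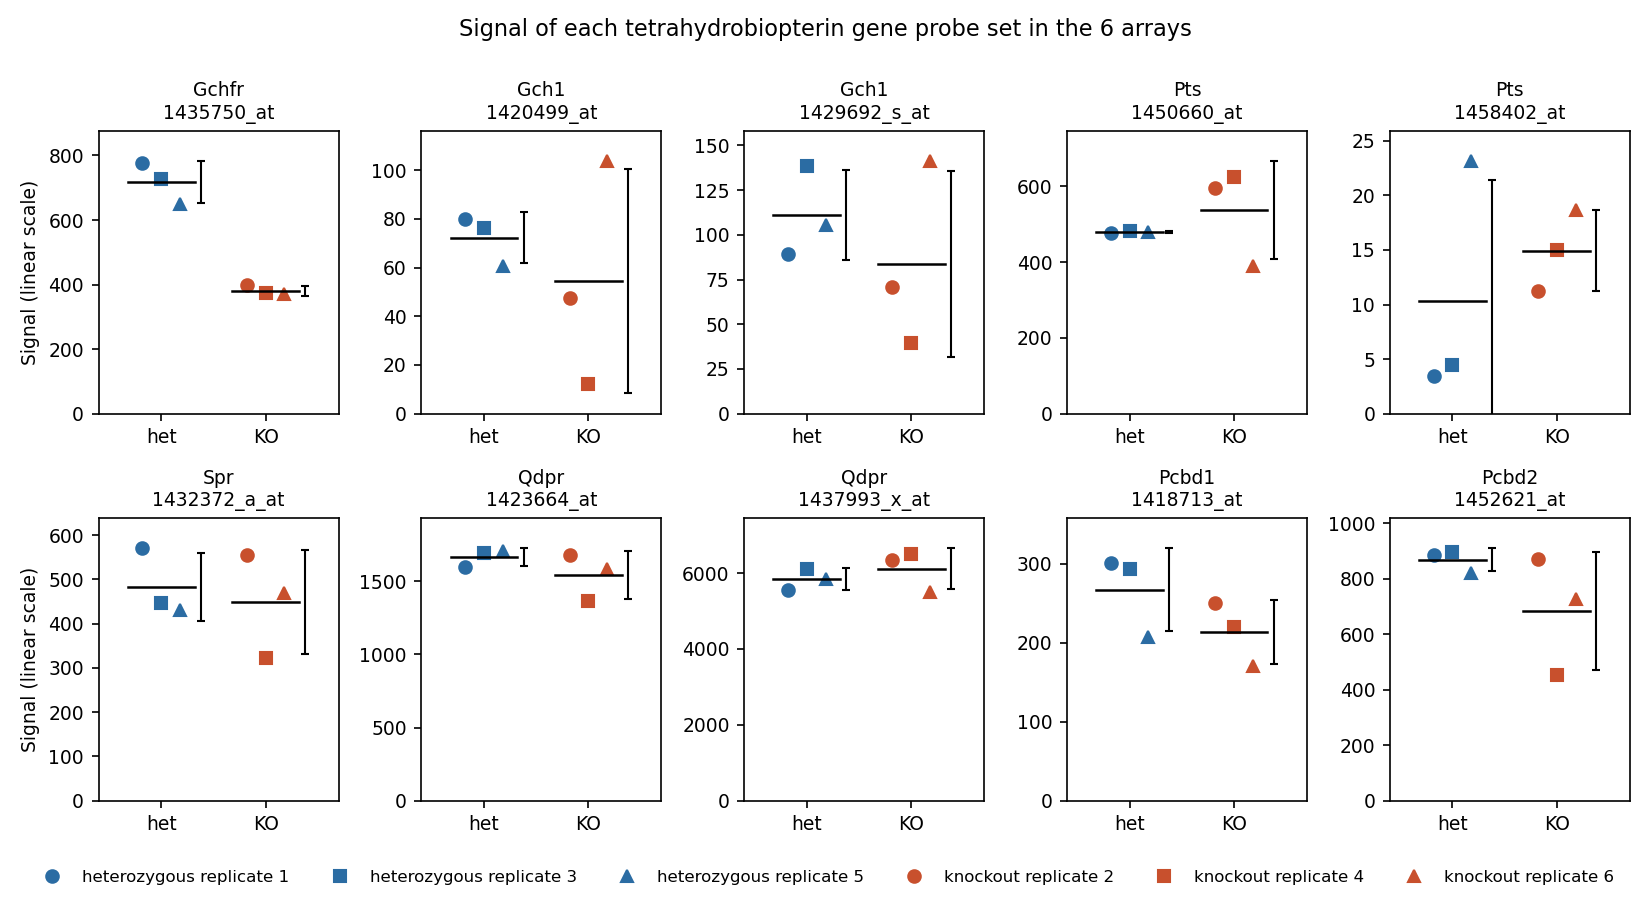
Signal on a linear scale (vertical axes, each starting at 0) of the 10 probe sets of the 7 genes in the 6 arrays, with heterozygous (het) arrays in blue and knockout (KO) arrays in orange, group means as horizontal lines and SD (n = 3) as bars, cut at 0 for the dim Pts probe set. The groups are apart for Gchfr, with 649 to 776 against 371 to 398, and overlap in the other 9 panels.

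Markers of several cell types were compared between the genotypes beside this result. Of 14 tested genes of intermediate cells and melanocytes, 12 were lower in knockout samples, where 56.8% of all 12428 tested genes were lower, and their median log2 difference was -0.12 against -0.04 over all genes. Without knockout replicate 4, 9 of the 14 were lower, with a median of -0.10, where 50.6% of all genes were lower. The summed signal of the list was 49266 to 57277 in heterozygous and 47940 to 52870 in knockout arrays, so it overlapped, and no marker was listed at 0. Neuron markers summed to 352 to 650 in heterozygous and 169 to 309 in knockout arrays, with 2 of 8 bright enough to be tested, both lower. Their median was -0.60, and it was -0.24 without knockout replicate 2 and -0.91 without knockout replicate 4. Cartilage and bone markers summed to 10631 to 12775 and 15966 to 20266, with 9 of 10 tested members higher (median 0.97, and 0.73 to 1.27 with an array left out). The summed levels of the neuron and the cartilage and bone lists did not overlap between the genotypes, as was the case for Gchfr, while those of all other marker lists did. In the neuron sum, Snap25, under the cutoff, was 212 in heterozygous replicate 5 and 16.5 and 32.7 in heterozygous replicates 1 and 3. The part of the neuron, cartilage and bone markers in the difference of Gchfr was not tested. In all, 15 marker lists with 93 tested genes were examined, and none of these genes passed the threshold of a limma adjusted p of 0.05, while 21 had an unadjusted p under 0.05, where 6.35% of all tested genes did. Slc26a4, the targeted gene, is among the 21.

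None of the 8 tested probe sets of the other 6 pathway genes passed the test. Over the whole array 0.0037% of probe sets passed, that is 1 of 27022, for Fgf18, so a count of 0 among 8 is near the background. At an unadjusted p under 0.05 there were also 0 of 8, where 11.6% of all probe sets met that limit. The groups did not overlap in 0 of 8, where they did not in 17.0% of all tested probe sets. By sign, 6 of the 8 were lower and 2 higher in knockout samples, with a median log2 difference of -0.21 and a range from -0.55 to 0.13. Over all tested probe sets, 13671 of 27022 were lower, with a median of -0.0044. Over all tested named genes, 7056 of 12428 were lower, with a median of -0.04. Gch1 and Qdpr each enter the 8 with more than 1 probe set. The limma adjusted p-values lay between 0.547 and 0.875. With 3 arrays per genotype the intervals of single genes are wide, and a p that misses the threshold does not show equal levels.

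**Figure D2:**
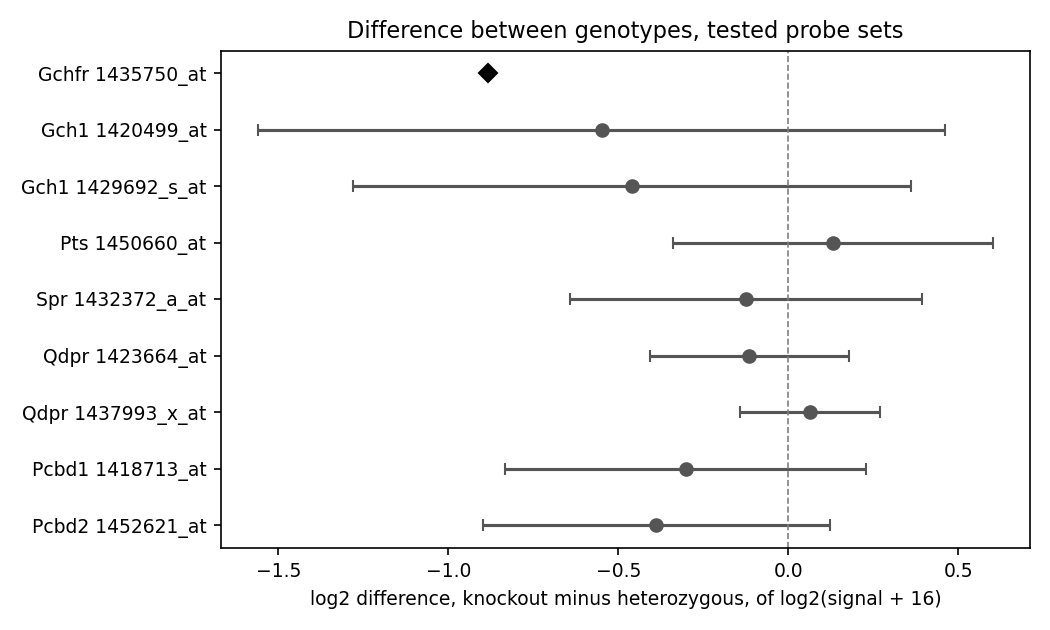
Log2 difference between knockout and heterozygous arrays (horizontal axis, log2(signal + 16), below 0 is lower in knockout) for the 9 tested probe sets, as points with 95% intervals from the limma fit. Gchfr, a diamond at -0.88, is drawn without an interval because it was chosen for this difference, and each of the other 8 intervals spans 0.

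Gch1, the enzyme that Gchfr inhibits, varied widely among knockout arrays. Its first probe set (1420499_at) gave 80.2, 76.2 and 60.5 in heterozygous replicates 1, 3 and 5, and 47.7, 12.4 and 104 in knockout replicates 2, 4 and 6. Its other probe set (1429692_s_at, a type whose probes can match more than 1 transcript) gave 89.1, 138 and 106 in the heterozygous arrays and 70.7, 39.6 and 141 in the knockout arrays. On both probe sets knockout replicate 4 was the lowest array and knockout replicate 6 the highest, so the knockout values enclosed the heterozygous ones. The log2 differences were -0.55 (95% interval -1.56 to 0.46, limma adjusted p = 0.679) and -0.46 (-1.28 to 0.36, limma adjusted p = 0.670). Without knockout replicate 4 they were -0.0089 and -0.10, and without knockout replicate 6 they were -1.05 and -0.85. The means over all arrays were 63.4 and 97.4, above the cutoff of about 43.9 under which probe sets were left out. The value for the enzyme thus depended on which knockout array was left out.

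The later enzymes of synthesis differed less than their spread. Pts encodes 6-pyruvoyltetrahydropterin synthase, the enzyme of the step after GTP cyclohydrolase I. Its brighter probe set (1450660_at) gave 476, 482 and 479 in heterozygous arrays and 597, 626 and 389 in knockout replicates 2, 4 and 6. The heterozygous arrays were nearly equal, while the knockout arrays lay on both sides of them. The log2 difference was 0.13 (95% interval -0.34 to 0.60, limma adjusted p = 0.850), and it was 0.01 without knockout replicate 4 and 0.34 without knockout replicate 6. The other Pts probe set (1458402_at) was between 3.48 and 23.1 in all arrays, under the cutoff, and was not tested. Spr encodes sepiapterin reductase, which completes the cofactor. Its signal was 570, 447 and 432 in heterozygous arrays and 556, 323 and 468 in knockout replicates 2, 4 and 6, with the groups overlapping across most of their range. The log2 difference was -0.12 (95% interval -0.64 to 0.39, limma adjusted p = 0.875), and without knockout replicate 4 its sign turned, to 0.09.

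The recycling genes encode the dehydratases, Pcbd1 and Pcbd2, and the reductase, Qdpr. The Pcbd proteins are pterin-4a-carbinolamine dehydratases that also bind the transcription factor HNF1 as dimerisation cofactors. Pcbd1 gave 301, 294 and 207 in heterozygous replicates 1, 3 and 5 and 250, 220 and 170 in knockout replicates 2, 4 and 6. Each knockout array was below the heterozygous mean, and 1 of the 3 was below the lowest heterozygous array. Its log2 difference was -0.30 (95% interval -0.83 to 0.23, limma adjusted p = 0.665). It was -0.33 without knockout replicate 4, -0.16 without knockout replicate 6 and -0.47 without heterozygous replicate 5.

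Pcbd2 gave 887, 898 and 823 in heterozygous arrays and 871 (replicate 2), 454 (replicate 4) and 727 (replicate 6) in knockout arrays. Knockout replicate 4 was far below all others, and knockout replicate 2 lay among the heterozygous arrays. The log2 difference was -0.39 (95% interval -0.90 to 0.12, limma adjusted p = 0.547), the lowest adjusted p of the 8 probe sets. Without knockout replicate 4 it was -0.12 and without knockout replicate 2 it was -0.58.

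Qdpr encodes dihydropteridine reductase, which returns quinonoid dihydrobiopterin to tetrahydrobiopterin, and it was the member measured with the narrowest intervals. One probe set (1423664_at) gave 1596, 1695 and 1705 in heterozygous arrays and 1680, 1363 and 1582 in knockout replicates 2, 4 and 6. The other (1437993_x_at, a type whose probes can also match other sequences) gave 5550, 6121 and 5845 in heterozygous arrays and 6344, 6500 and 5496 in knockout arrays. Knockout replicate 4 was the lowest array on the former and the highest on the latter, so the probe sets of this gene disagreed about that array. The log2 differences were -0.11 (95% interval -0.41 to 0.18, limma adjusted p = 0.776) and 0.06 (-0.14 to 0.27, limma adjusted p = 0.830).

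Across the pathway the lowest signal fell on 2 of the arrays. Of the 8 tested probe sets other than that of Gchfr, 5 were lowest in knockout replicate 4 (both of Gch1, and those of Spr, Pcbd2 and 1 of Qdpr) and 3 in knockout replicate 6 (Pts, Pcbd1 and the other of Qdpr). Over all tested probe sets, 32.6% were lowest in knockout replicate 4 and 10.2% in knockout replicate 6, and with 8 probe sets of 6 genes this is a description. Without knockout replicate 4, the tested probe sets other than those of Gchfr and Pcbd1 had log2 differences between -0.12 and 0.09. Gchfr, chosen for its difference in these arrays, and Pcbd1 were then at -0.87 and -0.33, and the limma adjusted p of Pcbd1 was 0.829.

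**Figure D3:**
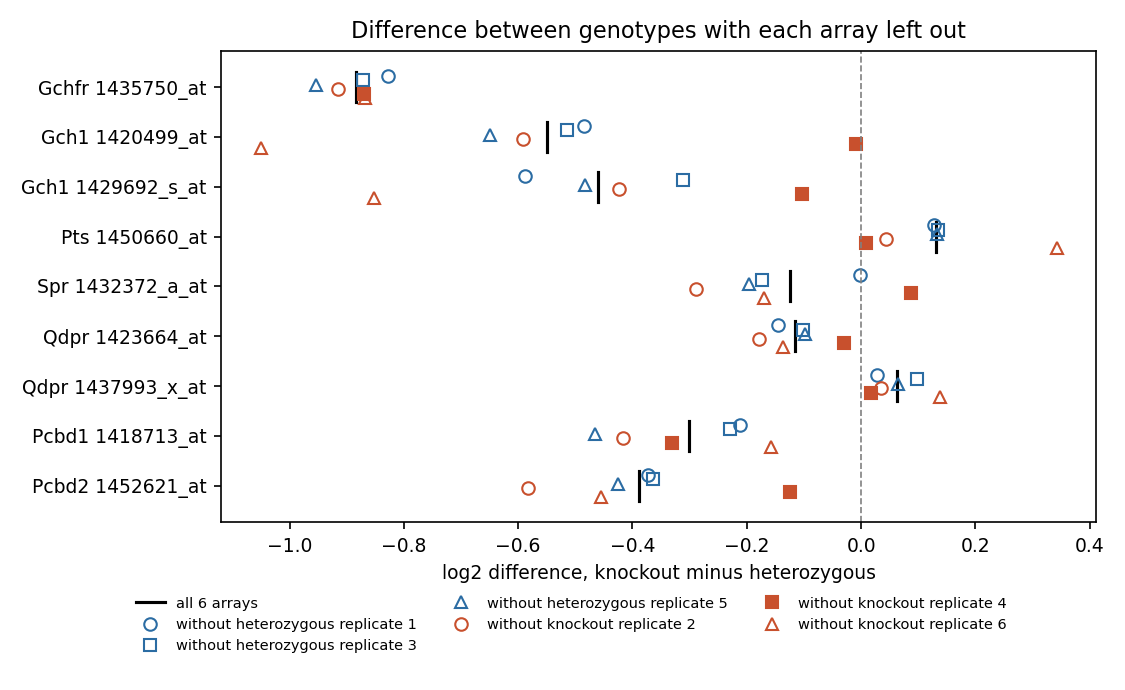
Log2 difference between knockout and heterozygous arrays (horizontal axis) for the 9 tested probe sets, with all 6 arrays as black bars and with each array left out in turn as symbols, blue for heterozygous and orange for knockout arrays, spread vertically within a row for legibility. The filled squares, without knockout replicate 4, lie near 0 for Gch1, Pts, Spr and Qdpr, while all symbols of Gchfr lie between -0.95 and -0.83. The narrow range of Gchfr follows largely from its choice by these arrays and is no contrast with the other genes.

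Enzymes that use tetrahydrobiopterin were mostly dim in this tissue. Of 7 such genes on the array, 5 were under the cutoff. Th, the tyrosine hydroxylase, was between 1.14 and 2.67 in all arrays. Tph1 and Tph2, the tryptophan hydroxylases, were between 17.9 and 44.9 and between 1.87 and 12.9, and Nos2, the inducible nitric oxide synthase, was between 1.19 and 4.95. The brightest probe set of Nos1, the neuronal nitric oxide synthase, was between 17.2 and 30.0. Nos3, the endothelial nitric oxide synthase, was 50.9, 131 and 76.1 in heterozygous arrays and 69.6, 51.8 and 107 in knockout arrays, with a log2 difference of -0.11 (95% interval -0.88 to 0.66, limma adjusted p = 0.925). Agmo, the alkylglycerol monooxygenase that cleaves ether lipids, was 396, 497 and 426 in heterozygous arrays and 463, 447 and 683 in knockout arrays, with a log2 difference of 0.24 (-0.23 to 0.72, limma adjusted p = 0.700). The groups overlapped in both genes.

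Genes around the pathway gave no call either. In 6 lists (tetrahydrobiopterin-dependent enzymes, other reductases able to form the cofactor, GTP supply, molybdopterin synthesis, nitric oxide handling and HNF1 partners of the Pcbd proteins), 33 genes were on the array and 23 were tested. None passed, where 0.00805% of all tested genes did, and 1 had an unadjusted limma p under 0.05, where 6.35% of all tested genes did. The HNF1 list had 0 genes with a probe set of their own symbol. Among the other reductases, Cbr1, a carbonyl reductase, was 1778, 1557 and 1501 in heterozygous arrays and 1666, 1020 and 1309 in knockout arrays (log2 difference -0.30, limma adjusted p = 0.567). Its relative Cbr3 had a log2 difference of 0.16 (limma adjusted p = 0.835). Of 6 genes of GTP supply 3 were lower and 3 higher, with a median of 0.02, which was -0.08 without knockout replicate 2, -0.0003 without heterozygous replicate 3 and 0.10 without knockout replicate 6. Nme1, a nucleoside diphosphate kinase that forms GTP, was 4666, 4635 and 4455 in heterozygous arrays and 3468, 4100 and 3588 in knockout arrays, so that the groups did not overlap (log2 difference -0.31 ± 0.10 SE, limma adjusted p = 0.370). Its other probe set gave -0.24. Gmps, the GMP synthase, had -0.22 (limma adjusted p = 0.657).

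Molybdopterin, the other pterin cofactor made from GTP, was represented by 3 tested genes with a median of 0.03. Gphn, which encodes gephyrin, the protein that inserts molybdenum, was 639, 586 and 602 in heterozygous arrays and 581, 444 and 503 in knockout arrays, without overlap (log2 difference -0.26, limma adjusted p = 0.605). The other tested probe sets of Gphn gave -0.40 (1426463_at, groups also apart) and -0.51 (1430038_at, groups overlapping). Neither passed the test (limma adjusted p = 0.511 and 0.565). Mocs2, a subunit gene of molybdopterin synthase, had a log2 difference of 0.04 (limma adjusted p = 0.926). The median of this list turned to -0.05 without knockout replicate 4, and it was -0.0053 without heterozygous replicate 3, -0.0055 without knockout replicate 2 and -0.02 without knockout replicate 6.

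In the nitric oxide list, 9 of 10 tested genes were lower in knockout samples, beside 56.8% of all genes, with a median log2 difference of -0.27 against -0.04. None of the 10 passed the test. Prkg1, the cyclic GMP-dependent protein kinase, was 323, 800 and 531 in heterozygous arrays and 332, 226 and 420 in knockout arrays, with overlapping groups (log2 difference -0.68, limma adjusted p = 0.461). Its other probe set gave 0.21, so the direction for this gene was not settled. Gucy1b1, a subunit of the nitric oxide receptor guanylate cyclase, was 533, 902 and 577 in heterozygous arrays and 436, 233 and 650 in knockout arrays (log2 difference -0.67, limma adjusted p = 0.486). Nosip, which binds nitric oxide synthases and was named after its values were seen, was the third gene of the 6 lists whose groups did not overlap, beside Nme1 and Gphn (log2 difference -0.31, limma adjusted p = 0.488), but its other probe set gave 0.06. That is 3 of 23 genes, where 13.1% of all tested genes did not overlap. Without knockout replicate 4, 8 of the 10 were lower with a median of -0.16, where 50.6% of all genes were lower, and without heterozygous replicate 3 the median was also -0.16. Endothelial markers moved in the same arrays, with summed signals of 6497, 11064 and 6779 in heterozygous arrays and 6654, 3148 and 10090 in knockout replicates 2, 4 and 6, with 8 of 10 lower (median -0.28) and none listed at 0. Without knockout replicate 4 the direction of this list turned, with 2 of 10 lower and a median of 0.15, and without heterozygous replicate 3 the median was -0.01. Their part in the values of the nitric oxide list was not tested.

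**Figure D4:**
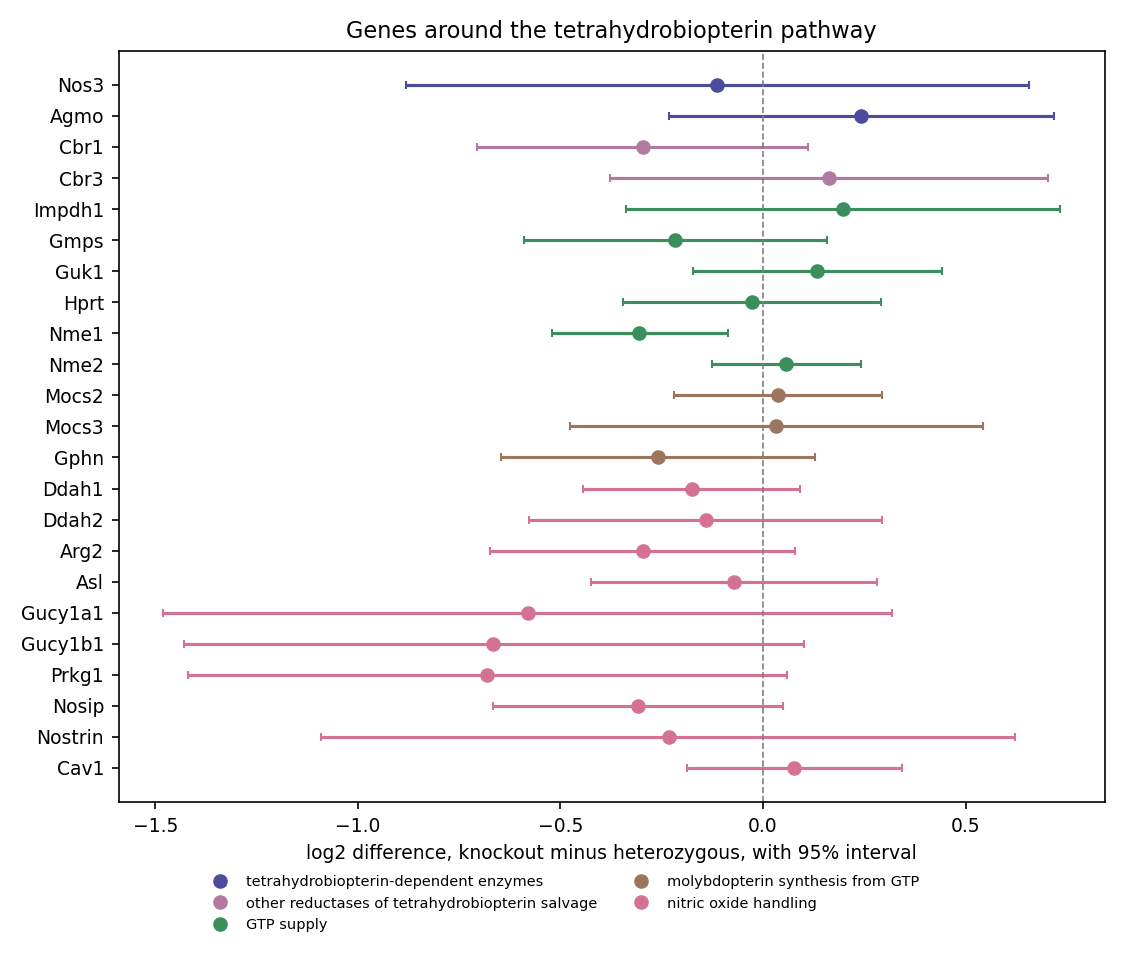
Log2 difference between knockout and heterozygous arrays (horizontal axis) with 95% limma intervals for the 23 tested genes of 5 lists around the pathway, coloured by list, each gene by its brightest tested probe set. Of the 10 nitric oxide genes 9 lie below 0, and no gene passed the threshold after adjustment over all probe sets.

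The genes whose log2 signal over the 6 arrays followed Gchfr most closely came from outside the pathway. By Pearson correlation, given as a description over arrays that share the genotype difference, these were Tex35 (r = 0.996), Trbv13-2 (0.994), 1700019D03Rik (0.992), Hpn (0.991) and Capn5 (0.989). Tex35 is a testis-expressed gene, Trbv13-2 a variable segment of the T cell receptor beta chain, Hpn encodes the membrane serine protease hepsin and Capn5 a calpain protease. Hpn was 299, 269.5 and 272 in heterozygous arrays and 201, 197 and 193 in knockout arrays, and Capn5 was 234, 233 and 223 against 167, 149 and 159. Of 12427 other genes, 125 had a correlation above 0.9, and with 6 arrays in 2 groups apart from each other such values are set mainly by the step between the genotypes.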

How the data were processed

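Total RNA of 6 stria vascularis samples was labelled with the NuGEN Ovation protocol and hybridised to Affymetrix mouse arrays, per the labels' protocols. The authors' deposited intensity of each probe set is linear and was made in GCOS, as the submitters' processing notes state without a version. The mean of each array, trimmed by 2% at either end, was 500.002, so the arrays were already scaled. From these values log2(signal + 16) was computed and the 64 control probe sets were removed. Dim probe sets, with a mean of log2(signal + 16) under the 40th percentile (about 43.9 in signal), were left out, leaving 27022 of 45037. The others were fitted with limma 3.58.1 in R 4.3.3 (eBayes, variance trend) in two-sided tests with Benjamini-Hochberg adjustment over all tested probe sets and a threshold of 0.05. The fit was tested on simulated data. Gene names came from the platform annotation, where it gave 1 symbol for a probe set (34945), and a gene in a list is its brightest tested probe set. Genotype and replicate were taken from the sample titles.

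The members and lists were chosen with earlier results of these data known. Named genes are all members, the measured tetrahydrobiopterin-dependent enzymes and up to 2 genes per other list by smallest p. Also named are the 5 genes correlated most with Gchfr and fixed markers. Fgf18, Snap25 and Trpm1 were named for their values. Other genes chosen after their values were seen are said to be so where they appear. The cell type lists were those of erythrocytes, mast cells, macrophages, lymphocytes, neurons, Schwann cells, hair cells, cartilage and bone, fibrocytes, pericytes, endothelial cells, outer sulcus, root and spindle cells, and the basal, marginal and intermediate cells of the stria. Alternatives were other offsets (1 and 64), quantile, median and cyclic loess normalisation, other filters, other variance models, array weights, 1 probe set per gene and leaving out each array.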

Additional observations from a re-analysis of the deposited data

How the results depend on the processing

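The number of member probe sets other than that of Gchfr that passed was 0 under all 17 alternatives. The log2 difference of Gchfr, the gene chosen for it, was between -0.95 and -0.81 over them, which its choice made likely. Turns of sign were seen for Qdpr (1437993_x_at), at -0.0016 with quantile normalisation, and for Spr, at 0.11 with array weights and between -0.289 and 0.0876 with an array left out, the latter without knockout replicate 4; the cause was not tested. The count of probe sets passing over the whole array, 1, was 3 with quantile normalisation, 2 with cyclic loess, 0 without a filter and 0 with the 60th percentile filter, 25 with array weights, 11 with 1 probe set per gene, and between 0 and 13 with an array left out, where the 13 came without knockout replicate 4. Of the intermediate cell list 1 gene, Trpm1, passed with array weights. No other list had a change in its count of 0. No paired analysis was made, because the titles only number the samples 1 to 6, in turn between the genotypes, and do not say whether any were paired. Medians of the other marker lists, with their range when an array was left out, were -0.03 for marginal cells (-0.06 to 0.08), 0.0098 for basal cells (-0.0084 to 0.06), -0.996 for root, spindle and outer sulcus cells (-1.31 to -0.46, the latter without heterozygous replicate 5), 0.05 for macrophages (-0.0065 to 0.28, the latter without knockout replicate 4), -0.24 for lymphocytes (-0.40 to -0.06), -0.33 for pericytes (-0.47 to -0.31), 0.19 for fibrocytes (0.13 to 0.29), -0.07 for hair cells (-0.24 to 0.14), 0.0037 for Schwann cells (-0.02 to 0.03) and -0.55 for erythrocytes (-0.80 to -0.16, the latter without heterozygous replicate 5); mast cell markers were all under the cutoff, with summed signals between 67.0 and 174.6. Slc26a4, the targeted gene, is among the 5 tested genes of the root, spindle and outer sulcus list, at -1.69. Its lower signal is part of the design, so this median is not free of the knockout itself. The other tested genes of that list were Kcnj16 at -1.07, Epyc at -0.996, Dpp10 at -0.14 and Anxa1 at 0.20. The lymphocyte value is that of 1 tested gene, Cd8a, with a mean signal of 54.0. Hair cells and erythrocytes had 2 tested genes each. The 3 arrays per genotype limit all intervals, most for Gch1.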

Other observations

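Some further probe sets of the nitric oxide genes, chosen after their values were seen, lay lower in all knockout arrays than in any heterozygous array. Ddah1 encodes a hydrolase that clears asymmetric dimethylarginine, an inhibitor of nitric oxide synthases. The groups did not overlap on 2 of its 5 probe sets, where 5.99% of all tested probe sets lay lower in this way. Ddah1 was picked for this, so the share is no test, and its probe set 1434519_at was under the cutoff and not tested. On 1 of these (1429298_at) it was 1025, 836 and 793 in heterozygous arrays and 745, 471 and 569 in knockout arrays (log2 difference -0.58 ± 0.20 SE, limma adjusted p = 0.370), and the other probe sets gave between -0.38 and -0.18. Arg2, an arginase that competes for the same arginine, was 824, 830 and 996 against 550.1, 558 and 745 on its second probe set (1418847_at, log2 difference -0.51, limma adjusted p = 0.370), where its brighter one gave -0.30. Neither passed the test. Ass1 of the same list, under the cutoff and not tested, went the other way. It was 9.38, 17.4 and 14.3 in heterozygous arrays and 28.6, 21.3 and 54.9 in knockout arrays, without overlap.

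The nearest tested neighbours of Gchfr on chromosome 2 were looked at as well. Rmdn3 and Rpusd2 on one side had log2 differences of -0.09 and -0.03, and Dnajc17 and Zfyve19 on the other side -0.20 and 0.10. The groups overlapped in all 4 neighbours, and their limma adjusted p-values lay between 0.752 and 0.978.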
